A study of Mus musculus with 12 samples.

Results

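The mutation of the nuclear receptor corepressor NCoR in liver was examined here in mice with normal thyroid function. The comparison set the 3 euthyroid mutants (replicates 2, 3 and 4) against the 3 euthyroid controls (replicates 13, 14 and 15), as their titles and source names give them, which is 6 of the 12 arrays of the study. The other 6 arrays, 3 hypothyroid controls (replicates 17, 18 and 20) and 3 hypothyroid mutants (replicates 5, 6 and 7), served to set the same mutation beside a lack of thyroid hormone. The design text names the mutants L-NCoR∆ID mice, the series title calls their livers NCoR deficient, and its stated question is how NCoR takes part in positive and negative regulation. The sources used here do not state how the allele was made, which promoter drives any Cre, the age, sex, strain or diet of the mice, or how mice were made hypothyroid. Each array held total liver RNA, so fewer cells of a type and less RNA per cell cannot be told apart. No source says whether the replicates came from separate litters or days, so p-values measure the spread between these samples.

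NCoR is a scaffold protein that nuclear receptors recruit when they lack an activating ligand. It brings the histone deacetylase Hdac3 and the subunits Tbl1x, Tbl1xr1 and Gps2 to the receptor's target genes, which keeps those genes quiet. In the liver its partners include the thyroid hormone receptors, the oxysterol receptors LXR and the fatty acid receptor PPAR alpha, and the genes under them range from lipid synthesis to the handling of hormones and foreign compounds.

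Values below are log2 signals, and differences are mutant minus control. Array medians lay between 4.16 and 4.32. Control replicate 14 had the smallest spread of log2 signal over all clusters (SD 2.219, against 2.259 to 2.307 on the other euthyroid arrays) and lay at one end of the first principal component. Of 15 hepatocyte markers, 0 were called and the mean per array was 12.14 to 12.17 in controls and 12.07 to 12.13 in mutants, so the labelled tissue carried its defining transcripts throughout. The level of the targeted gene was not analysed here. The partner subunits differed little: Hdac3 by 0.10, Tbl1x by 0.05 and Gps2 by 0.00, and Tbl1xr1 by 0.21 and 0.29 in its pair of clusters, with none called.

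Few clusters passed the test in euthyroid liver, and nearly all that passed were higher in mutants. In limma's moderated test over 21789 clusters with 1 gene symbol, 28 clusters (0.129% of those tested) of 26 genes passed an adjusted p of 0.05. Of these, 27 rose (0.124%) and 1 fell (0.00459%). The split was 38 higher and 7 lower after quantile normalization, and 19 and 9 with the SD of each array as a covariate. Genes on 3 lipid lists (fatty acid and triglyceride synthesis, cholesterol synthesis and LXR targets) made up 9 of the 26, and the other 17 genes lay outside them. Those 17 included enzymes that conjugate or hydrolyse hormones and drugs, a peroxisomal enzyme, membrane and vesicle proteins and 2 transcripts without a protein. Of the 26, 10 were on none of the 3 lipid lists and none of the 33 pathway lists. Differences of called clusters ranged from 0.76 to 3.56 in size. The groups of all 28 did not overlap, which held for 2266 clusters (10.4%) of those tested, 1100 higher and 1166 lower. A call requires a difference that is large for its spread.

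**Figure D1:**
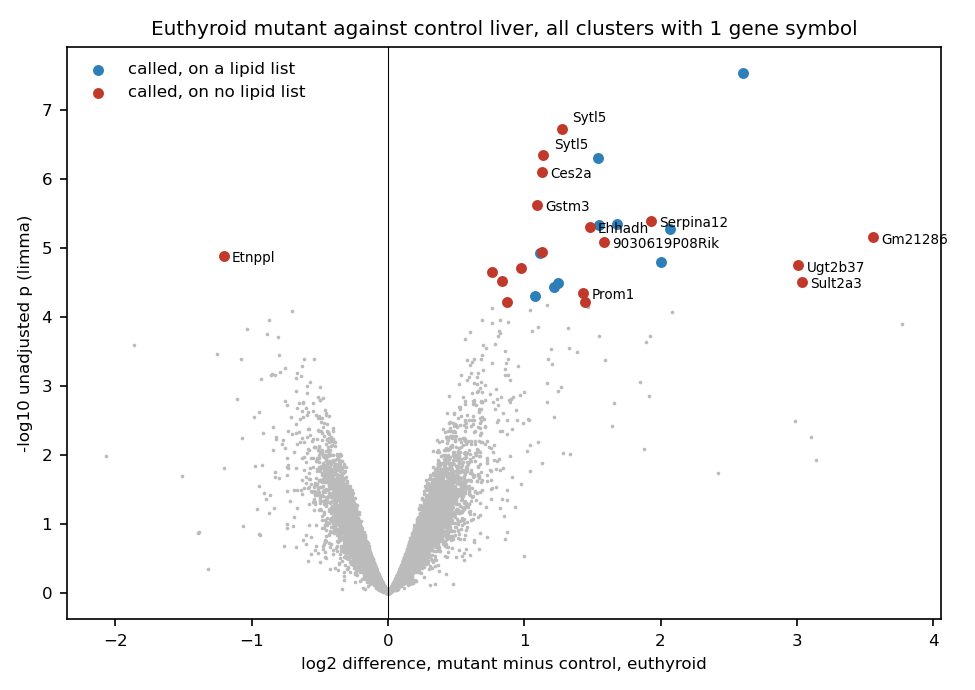
Log2 difference between euthyroid mutants and controls (x axis) against −log10 of the unadjusted p (y axis) for each cluster with 1 gene symbol, with called clusters on a lipid list in blue and other called clusters in red. The called clusters lie on the right, except Etnppl, and the largest difference among them is that of Gm21286 at 3.56.

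Enzymes that attach a polar group to steroids, bile acids and drugs had the largest rises among called genes that encode a protein. Sult2a3 belongs to the hydroxysteroid sulfotransferases, which sulfate bile acids and steroids. Its signal was 2.68, 2.76 and 4.20 in controls (replicates 13, 14 and 15) and 7.10, 5.25 and 6.41 in mutants (replicates 2, 3 and 4). All 3 mutants lay above every control, and the rise was 8.22-fold (difference 3.04 ± 0.516 SE, limma adjusted p = 0.0303). Ugt2b37 is a glucuronosyltransferase, an enzyme class that couples steroids and drugs to glucuronic acid. It was at 5.35, 4.87 and 6.49 in controls and at 8.57, 7.34 and 9.83 in mutants. The lowest mutant was above the highest control, and the rise was 8.06-fold (3.01 ± 0.486, adjusted p = 0.0217). Both genes sit in families of close copies that can share probes, so the assignment to a copy is uncertain.

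Those of their paralogs that had a cluster with 1 gene symbol did not pass the test. Sult2a1, Sult2a2, Sult2a4, Sult2a5 and Sult2a7 had no such cluster and were not compared. Sult2a6, measured near the bottom of the scale, was at 2.12 to 2.22 in controls and 2.4 to 3.0 in mutants, and Sult2a8, a highly expressed copy, differed by 0.35 ± 0.406. The 6 other Ugt2b genes on the list of glucuronosyltransferases differed by −0.21 to 0.16. These are values of clusters that each stand alone in the test, and no difference between paralogs was tested.

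Ces2a and Gstm3 moved with much less scatter. Ces2a encodes a carboxylesterase of the endoplasmic reticulum that hydrolyses drug esters and acylglycerols. Controls were at 9.64, 9.45 and 9.31 and mutants at 10.79, 10.59 and 10.42, with no overlap, a 2.19-fold rise (1.13 ± 0.14, adjusted p = 0.00347). The 4 other Ces2 genes measured differed by −0.09 to 0.37, the highest being Ces2b, and none was called. Ces2c, Ces2d and Ces2h had no cluster with 1 gene symbol and were not compared, so whether Ces2a rose alone in its family was not examined. Gstm3, a glutathione transferase of the mu class, had a pair of clusters. In the called cluster controls were at 9.17, 8.92 and 9.34 and mutants at 10.28, 10.20 and 10.22 (1.09 ± 0.148, adjusted p = 0.00859). In the other, controls were at 9.98, 9.99 and 9.86 and mutants at 10.76, 10.76 and 10.60, and the difference of 0.76 ± 0.141 missed the threshold (adjusted p = 0.0522). Neither cluster had overlapping groups, and mu class copies are similar enough that a probe may take up signal from another copy.

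Promoters of the called genes were searched because NCoR acts through nuclear receptors, many of which bind the hexamer AGGTCA. The search covered the 250 bases before each RefSeq transcript start (GRCm38.p6) on both strands, and 22 of the 26 called genes had such a window. The hexamer stood in windows of 4 of the 22 genes (Vtcn1, Ugt2b37, Ces2a and Elovl6), against 15.8% of 27025 genes and 14% of 32851 windows overall. The direct repeat with a gap of 4 letters that thyroid hormone receptors prefer, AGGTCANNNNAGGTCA, stood in none of the 22 and in 0.0152% of windows, and AGGTCANAGGTCA, the form that PPAR dimers bind, in none and in 0.0335%. A match is a description of letters and shows no binding. The windows of 3 genes outside the lipid lists are given in full, 5′ to 3′ on the gene's strand, with the hexamer in capitals.
Vtcn1: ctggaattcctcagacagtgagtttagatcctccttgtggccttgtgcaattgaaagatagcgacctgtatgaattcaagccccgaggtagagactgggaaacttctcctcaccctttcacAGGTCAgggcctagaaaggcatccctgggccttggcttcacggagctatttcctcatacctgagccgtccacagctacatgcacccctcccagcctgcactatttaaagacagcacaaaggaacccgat
Ugt2b37: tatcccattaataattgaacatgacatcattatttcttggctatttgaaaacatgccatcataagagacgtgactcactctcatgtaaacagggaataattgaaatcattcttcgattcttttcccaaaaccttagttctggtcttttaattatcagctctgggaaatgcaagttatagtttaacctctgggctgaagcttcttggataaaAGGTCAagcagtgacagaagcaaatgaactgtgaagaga
Ces2a: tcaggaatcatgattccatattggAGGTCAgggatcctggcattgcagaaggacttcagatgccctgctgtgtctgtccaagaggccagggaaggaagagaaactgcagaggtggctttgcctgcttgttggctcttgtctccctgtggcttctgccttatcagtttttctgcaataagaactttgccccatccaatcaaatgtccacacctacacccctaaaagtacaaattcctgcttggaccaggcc
They lie at chr3:100825209-100825458 on the plus strand, chr5:87254789-87255038 on the minus strand and chr8:104733753-104734002 on the plus strand. The hexamer begins 129 bases before the start of Vtcn1, 39 before that of Ugt2b37 and 226 before that of Ces2a.

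Ehhadh, Acot11 and Etnppl, which were on no synthesis list, were also called. Ehhadh encodes the bifunctional enzyme of peroxisomal beta-oxidation and is a known target of PPAR alpha. It was at 10.23, 9.28 and 9.60 in controls and at 11.42, 11.10 and 11.03 in mutants, and the 2.79-fold rise (1.48 ± 0.213, adjusted p = 0.0107) left a gap between the groups. Acot11 encodes an acyl-CoA thioesterase, which releases fatty acids from coenzyme A. Controls were at 5.64, 5.97 and 5.79 and mutants at 6.61, 6.90 and 6.82, a rise of 0.98 ± 0.159 (adjusted p = 0.0226). Etnppl, the phospholyase that breaks down phosphoethanolamine, was the only called gene that was lower in mutants. Controls were at 9.33, 8.62 and 8.75 and mutants at 8.0, 7.69 and 7.39, and it fell by 1.21 (SE 0.189, adjusted p = 0.0176).

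Other called genes were on no lipid list, and they are described one by one. Sytl5 encodes a synaptotagmin-like protein that binds Rab27 on secretory vesicles, and both of its clusters rose. One cluster was at 4.16, 3.80 and 4.24 in controls and 5.41, 5.26 and 5.36 in mutants (1.28 ± 0.14, adjusted p = 0.00204). The other was at 3.30, 3.24 and 3.46 in controls and 4.29, 4.42 and 4.71 in mutants (1.14 ± 0.134, adjusted p = 0.00274). With Pnpla3, Scd2 and Ces2a they were the clusters that stayed called whichever of the 12 arrays was left out and under every other alternative that gave them a value.

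Ginm1, which encodes a glycosylated integral membrane protein, was at 6.53, 5.94 and 6.16 in controls and 7.57, 7.46 and 7.0 in mutants (1.13 ± 0.175, adjusted p = 0.0171). Prom1, a pentaspan membrane protein known as a marker of biliary progenitors, was at 3.90, 3.59 and 4.31 in controls. The mutants were at 5.80, 4.72 and 5.57, a rise of 1.43 ± 0.252 (adjusted p = 0.0391). Mutant replicate 3 lay much closer to the controls than the other mutants did. The cholangiocyte markers as a list had a median difference of 0.01 and array means of 4.95 to 5.03 in controls and 4.89 to 5.03 in mutants, and 0 of them were called.

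Vtcn1 encodes B7-H4, a ligand that restrains T cells. Controls were at 4.34, 3.98 and 4.05 and mutants at 4.94, 5.04 and 4.90 (0.84 ± 0.142, adjusted p = 0.0303). Gask1a, a Golgi-associated kinase related protein, was at 5.05, 4.70 and 4.51 in controls and 6.23, 6.02 and 6.34 in mutants (1.45 ± 0.261, adjusted p = 0.0476). In both genes every mutant exceeded every control.

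Iqcb1, a ciliary protein that binds calmodulin, had the smallest called difference, from 4.06, 3.80 and 4.08 to 4.68, 4.77 and 4.78 (0.76 ± 0.126, adjusted p = 0.0247). Hs3st3a1, a sulfotransferase of heparan sulfate chains, went from 3.41, 3.30 and 3.57 to 4.29, 4.12 and 4.49 (0.87 ± 0.158, adjusted p = 0.0476). It shares the transfer of sulfate with Sult2a3 but acts on cell surface sugars. Gask1a and Hs3st3a1 had the adjusted p nearest below the threshold, and the nearest above it was 0.0508 (Chic1, named after its value was seen).

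Serpina12, or vaspin, is a secreted serpin first described in fat tissue. Controls were at 2.86, 2.70 and 2.61, which is near the bottom of the scale, and mutants at 3.92, 5.16 and 4.89. The 3.81-fold rise (1.93 ± 0.273, adjusted p = 0.0107) left all mutants above all controls. It was the only called member of the coagulation and fibrinolysis list, which holds it as a serpin and not as a clotting factor. The adipocyte and muscle markers were not higher in mutants as a list (median −0.24, 1 of 13 above 0).

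A pair of called transcripts encode no protein. Gm21286, a long noncoding RNA that RefSeq places among the Mup genes, had the largest called difference of all, 11.8-fold (3.56 ± 0.528, adjusted p = 0.0128). Controls were at 7.25, 6.87 and 9.07 and mutants at 11.47, 11.05 and 11.34. Control replicate 15 lay closer to the mutants than the other controls did. The major urinary protein genes Mup3 and Mup21 did not share the direction, at −0.36 and −0.46, neither called and both named after their values were seen. Mup1 and Mup20 had no cluster with 1 gene symbol. How near any of these genes lies to Gm21286 was not examined. 9030619P08Rik, a transcribed pseudogene among the Ly6 genes, was at 7.92, 7.53 and 8.33 in controls and at 9.82, 9.32 and 9.40 in mutants (1.59 ± 0.238, adjusted p = 0.0136). Copies of both transcripts' neighbours can share probes, so these assignments too are uncertain.

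**Figure D2:**
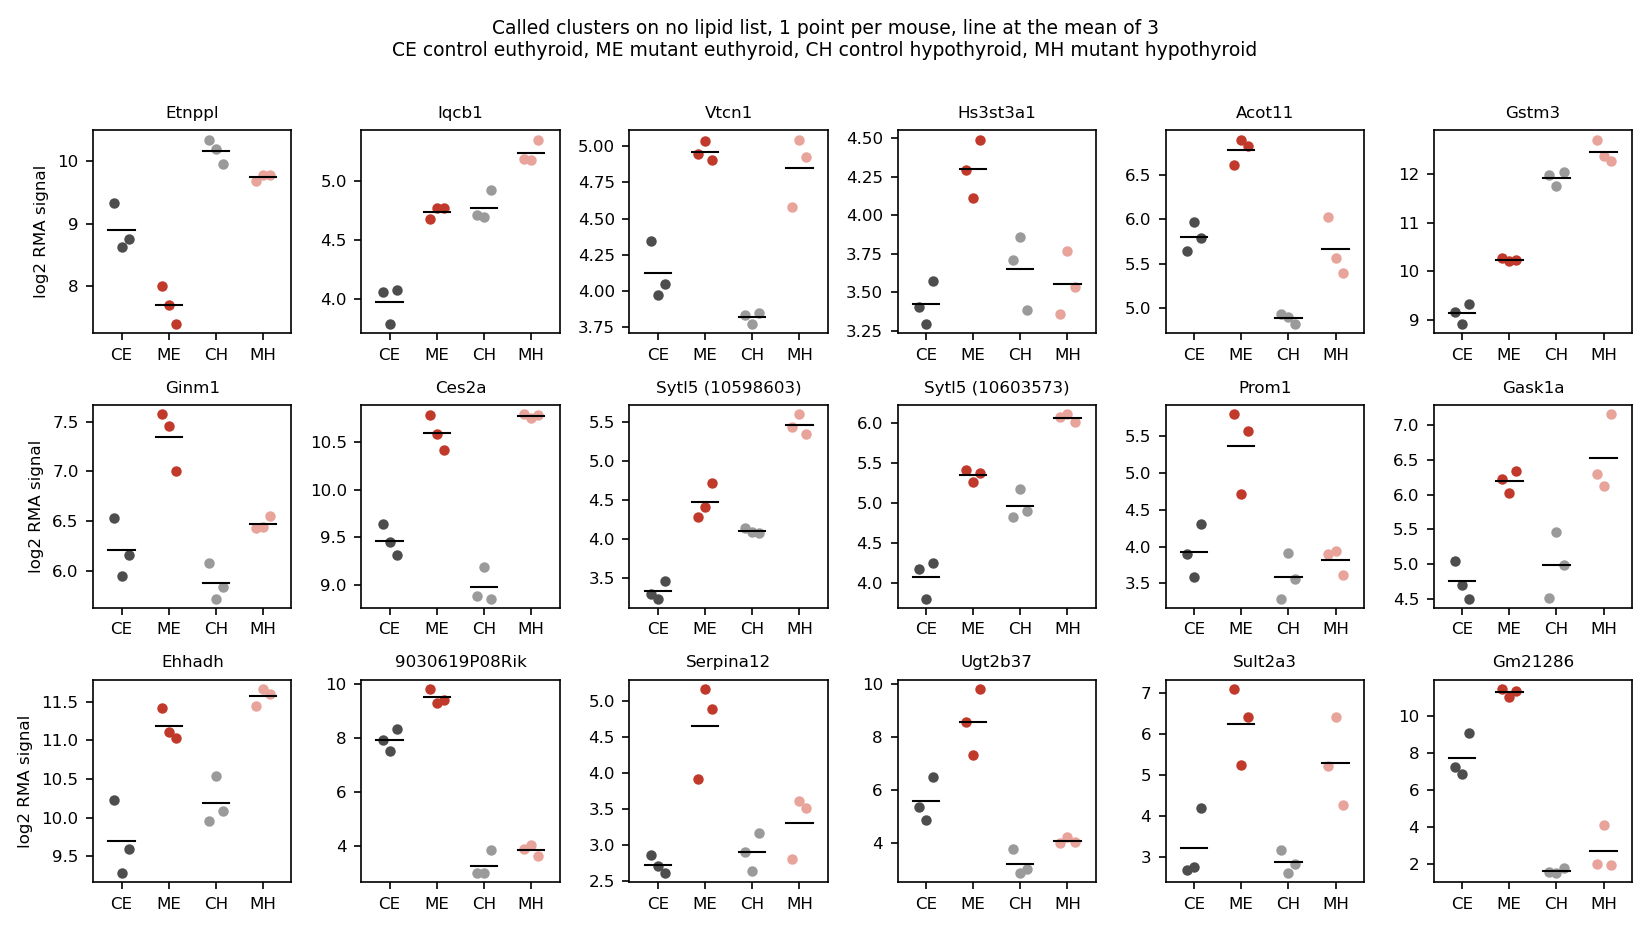
Log2 signal (y axis, a scale of its own in each panel) of the 18 called clusters on no lipid list, with 1 point per mouse, a line at the mean of 3 and the 4 groups along the x axis. In euthyroid mice every mutant lies on one side of every control, while in hypothyroid mice the groups of Hs3st3a1 and Prom1, for example, overlap.

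The called genes on the lipid lists are given in brief. Pnpla3, a lipid droplet protein with acyl hydrolase activity, was at 4.67, 4.97 and 4.88 in controls and 6.89, 7.56 and 7.88 in mutants, and had the lowest adjusted p of the comparison (0.000637). Scd2, a desaturase that adult liver expresses less than Scd1, was at 4.21, 4.38 and 4.24 in controls and 5.92, 6.13 and 5.40 in mutants. Elovl6, Thrsp, Me1, Fasn, Scd1, Sqle and Mvd completed the set, with differences of 1.08 to 2.07. On the 3 lists 7 of 32, 2 of 21 and 2 of 14 measured genes were called higher and 0 lower (some genes are on several lists), with medians of 0.38, 0.69 and 0.40, against −0.003 over all genes.

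Several genes differed by more than most called genes and missed the threshold, with mice of a group far apart. Sult1e1, the oestrogen sulfotransferase, had the largest difference of all, 3.77 ± 0.734 (adjusted p = 0.0692). Its controls were at 2.37, 2.11 and 4.22 and its mutants at 6.53, 5.19 and 8.28. The groups did not overlap, and the mice with the highest signal in each group were control replicate 15 and mutant replicate 4, which were also highest in their groups for Ugt2b37.

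Cyp2c39, a P450 that hydroxylates retinoids, was near 7 in all controls (6.90, 6.72 and 6.58) but split among mutants (11.77, 7.21 and 10.63), so that the difference of 3.14 ± 1.1 had an adjusted p of 0.521. A split of the same kind was present in hypothyroid mice of both genotypes, at 10.55, 7.12 and 6.90 in controls and 10.28, 10.80 and 7.38 in mutants. Cyp3a16, a P450 of the Cyp3a family, showed the opposite pattern, with mutants at 8.95, 8.96 and 8.94 and controls at 2.57, 6.16 and 8.81 (3.10 ± 0.956, adjusted p = 0.413). Serpina1d, a member of the alpha-1-antitrypsin cluster whose copies are nearly identical, was at 7.74, 8.85 and 8.36 in controls and 11.24, 11.62 and 11.04 in mutants (2.99 ± 0.853, adjusted p = 0.333). Its 3 mutants were close together, but hypothyroid mutant replicate 5 was at 6.78 and the other 2 at 11.39 and 11.65.

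Lpl, lipoprotein lipase, was at 4.89, 4.28 and 4.66 in controls and 6.66, 7.16 and 5.80 in mutants (1.93 ± 0.39, adjusted p = 0.081). Pltp, the phospholipid transfer protein, was at 6.63, 6.78 and 6.43 in controls and 8.21, 9.30 and 8.01 in mutants (1.89 ± 0.392, adjusted p = 0.0926). Mutant replicate 3 was highest in both. Fabp5, a fatty acid binding protein, differed by 1.92 and 1.64 in its pair of clusters, with mutant replicate 4 highest.

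Serpinb1a, an inhibitor of neutrophil proteases, and Sucnr1, the succinate receptor, shared a pattern among controls. For Serpinb1a, control replicate 13 was at 6.52, the other controls at 4.69 and 4.61, and mutants at 7.58, 7.47 and 7.02. For Sucnr1, control replicate 13 was at 6.14, the others at 4.20 and 4.22, and mutants at 6.96, 6.5 and 6.66. In both, control replicate 13 lay nearer to the mutants than to its own group. The adjusted p was 0.0538 for Serpinb1a and 0.184 for Sucnr1.

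Among uncalled genes whose groups did not overlap and whose higher mean was above the median level of all clusters, those with the lowest differences included C8a, Il1rap and Tedc2. C8a, a chain of the complement membrane attack complex that hepatocytes secrete, was at 9.38, 8.60 and 8.74 in controls and at 6.54, 8.19 and 6.41 in mutants (−1.86 ± 0.39, adjusted p = 0.0978). Il1rap, the accessory chain of the interleukin-1 receptor, was at 8.38, 7.70 and 7.95 in controls and at 6.83, 7.48 and 6.61 in mutants (−1.04 ± 0.205, adjusted p = 0.0747). Tedc2, a centriolar protein, was at 7.17, 7.56 and 7.0 in controls and at 5.68, 6.56 and 5.72 in mutants (−1.25 ± 0.272, adjusted p = 0.119). In these 3 genes mutant replicate 3 lay nearest to the controls. Ociad2 (−1.08) and Flvcr2, a haem and choline transporter (−0.94), also had groups that did not overlap. Mgst3, a microsomal glutathione transferase, stood at 7.20, 7.26 and 7.54 in controls and 6.65, 6.67 and 6.08 in mutants (−0.87 ± 0.167, adjusted p = 0.0661), opposite to Gstm3.

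Of all clusters tested, 77 differed by 1 or more in size, 63 higher and 14 lower. Between adjusted p of 0.05 and 0.1 lay 29 more clusters, 23 higher and 6 lower. Among them, named after their values were seen, were Cd36, the fatty acid translocase (1.47 ± 0.269, adjusted p = 0.0513), Bst2, an interferon-induced membrane protein (0.82 ± 0.158, adjusted p = 0.0661), and Cyp2d40 (−0.70 ± 0.131, adjusted p = 0.0536).

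Genes that mark the thyroid hormone response did not move together. Thrsp and Me1 rose, as above. Dio1, the deiodinase that converts thyroxine to its active form, was at 8.14, 8.91 and 8.67 in controls and 9.51, 9.62 and 9.74 in mutants. Its groups did not overlap, and the difference of 1.05 ± 0.21 missed the threshold (adjusted p = 0.0773). Gpd2, the mitochondrial glycerol phosphate dehydrogenase, was at 7.26, 6.75 and 7.16 in controls and 7.72, 7.67 and 7.56 in mutants (0.59 ± 0.208, adjusted p = 0.528). Klf9, a transcription factor that thyroid hormone induces directly, was at 7.67, 8.47 and 7.90 in controls and at 7.24, 7.76 and 7.10 in mutants (−0.65 ± 0.204, adjusted p = 0.42), and its groups overlapped. The receptors differed by −0.30 (Thra) and 0.11 (Thrb). Of 19 measured genes of the thyroid hormone induced list, 2 were called higher, 0 lower, 11 were above 0, and the median was 0.05.

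Most pathways outside lipid synthesis were centred on no difference. The 33 pathway lists held 864 measured genes, and 28 of the lists had a median between −0.2 and 0.2, beside −0.003 over all 19938 genes, of which 9832 were above 0. A called gene was present in 7 of the 33 lists and absent from 26. Over all genes 24 were called higher and 1 lower when each gene stood for its cluster of highest mean, and groups did not overlap for 991 higher and 1095 lower.

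**Figure D3:**
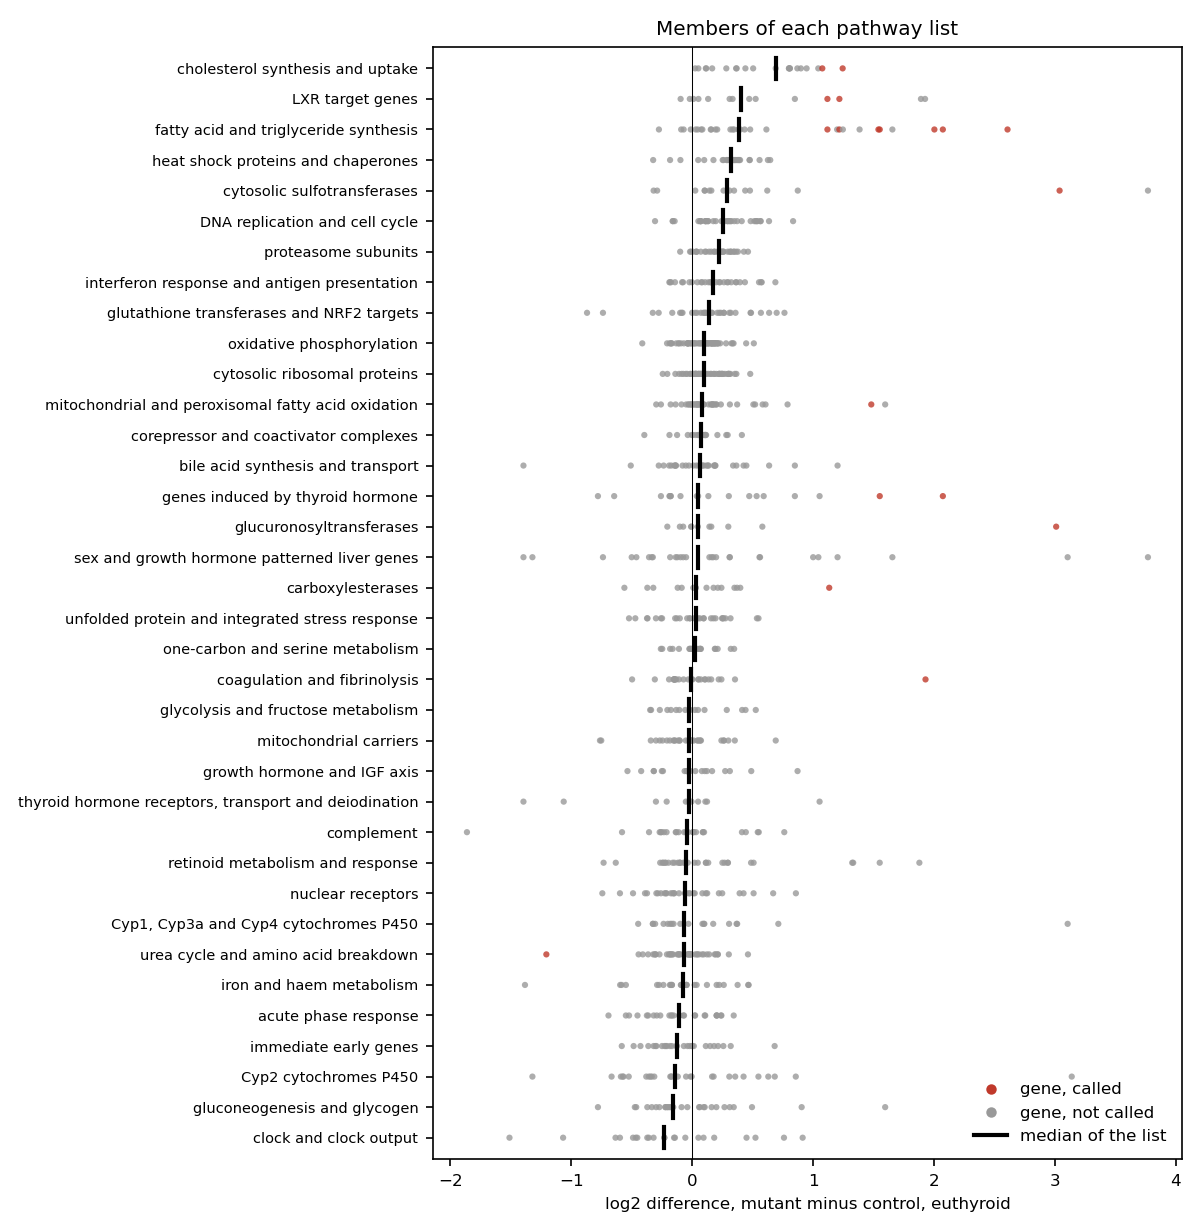
Log2 difference, euthyroid mutant minus control (x axis), of each measured gene of the lipid and pathway lists (y axis, ordered by median), with called genes in red, other genes in grey and the median as a bar. The lists of cholesterol synthesis (0.69), LXR targets (0.40) and fatty acid synthesis (0.38) head the order, and the clock list (−0.23) ends it.

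In several families of drug and hormone metabolism, 1 or a few members stood far from the rest of those measured. Of 16 sulfotransferase genes and their cofactor enzymes 14 were above 0, with a median of 0.28, 1 called higher (Sult2a3) and groups apart for 4 higher and 1 lower. Sult1e1 (3.77, not called) and Sult2a3 (3.04) lay furthest from 0. Over all clusters 0.124% were called higher, and groups were apart with mutants higher in 5.05% and lower in 5.35%. Of 11 genes on the glucuronosyltransferase list, which also holds the cofactor enzyme Ugdh, 6 were above 0 (median 0.05), with 1 called. The Ugt1a genes of that list had no cluster with 1 gene symbol. Of 17 genes on the carboxylesterase list, which also holds the deacetylase Aadac, 12 were above 0 (median 0.03), with 1 called. The 28 Cyp2 genes had 0 called and a median of −0.15, and ranged from −1.32 to 3.14 (Cyp2c39). The 20 genes of the Cyp1, Cyp3a and Cyp4 families had 0 called and a median of −0.07. Of 32 glutathione transferases and NRF2 targets 23 were above 0 (median 0.14) and 0 were called. They ranged from −0.87 to 0.76, with groups apart for 8 higher and 3 lower. The called cluster of Gstm3 is not the one counted there, since its other cluster had the higher mean.

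Genes of bile acid synthesis and transport varied around 0 (34 genes, 21 above 0, median 0.07, 0 called). Cyp7b1, the oxysterol hydroxylase of the acidic pathway, was at 8.18, 7.93 and 7.79 in controls and 8.65, 8.98 and 9.88 in mutants (1.20 ± 0.27, adjusted p = 0.133). Cyp7a1, the rate-limiting enzyme of the classic pathway, was at 8.16, 8.13 and 9.48 in controls and 9.32, 9.40 and 9.60 in mutants (0.85 ± 0.447, adjusted p = 0.646). Slco1a1, an organic anion transporter, was at 8.19, 7.63 and 6.52 in controls and 3.96, 7.51 and 6.68 in mutants. Mutant replicate 2 alone lay far below the controls, and the difference of −1.40 ± 0.877 had an adjusted p of 0.694.

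In energy metabolism the 42 genes of fatty acid oxidation had a median of 0.08, with 31 above 0 and Ehhadh alone called. Pdk4, the kinase that turns off pyruvate dehydrogenase, was at 6.19, 4.32 and 4.93 in controls and 6.82, 6.47 and 6.94 in mutants (1.60 ± 0.353, adjusted p = 0.124). The 60 subunits of oxidative phosphorylation had a median of 0.10, 41 above 0 and 0 called, and the median was 0.00 without control replicate 14. Gluconeogenesis and glycogen genes had a median of −0.16 (29 genes, 12 above 0, 0 called). Pck1, the enzyme that makes phosphoenolpyruvate, was at 11.71, 11.59 and 11.44 in controls and at 10.35, 11.16 and 10.88 in mutants (−0.78 ± 0.248, adjusted p = 0.436). Ppp1r3b, a subunit that directs a phosphatase to glycogen, went the other way, from 7.89, 7.45 and 6.99 to 8.18, 8.94 and 7.92 (0.90 ± 0.234, adjusted p = 0.248).

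Enzymes of the urea cycle and amino acid breakdown had more genes below than above 0. Of 45, 14 were above 0 (median −0.07), 1 was called lower (Etnppl), and the groups did not overlap for 13 lower and 3 higher (5.35% and 5.05% of all clusters). Ftcd, of histidine breakdown, was at 9.59, 9.75 and 9.78 in controls and at 9.26, 9.46 and 9.06 in mutants (−0.44 ± 0.139, adjusted p = 0.42). Prodh2, of hydroxyproline breakdown, was at 8.90, 9.04 and 9.01 in controls and at 8.60, 8.72 and 8.40 in mutants (−0.41 ± 0.154, adjusted p = 0.563). Hepatocyte markers, which are made by the same cells, were below 0 in 11 of 15 genes (median −0.05, and −0.01 after median centring), with groups apart for 6 lower (5.35% of all clusters) and 0 higher. The part of that shift in the amino acid list was not tested.

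Among nuclear receptors, 33 genes had a median of −0.06 and 0 called. Ppard, the delta form of the fatty acid receptors, was at 6.14, 6.08 and 5.54 in controls and 6.79, 6.98 and 6.56 in mutants (0.86 ± 0.201, adjusted p = 0.163). Nr1i3, the receptor CAR that senses foreign compounds, was at 9.80, 9.93 and 9.87 in controls and at 8.99, 9.63 and 8.76 in mutants (−0.74 ± 0.198, adjusted p = 0.26). Both had groups that did not overlap.

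Of 32 genes of retinoid metabolism and response, 15 were above 0 (median −0.05) and 0 were called, yet the list spread widely. Rarres1, a retinoic acid induced membrane protein, was at 7.48, 6.76 and 7.19 in controls and 8.36, 9.17 and 8.55 in mutants (1.55 ± 0.315, adjusted p = 0.081). Rdh11, a retinal reductase, was at 7.70, 6.77 and 7.55 in controls and 8.45, 8.65 and 8.88 in mutants (1.32 ± 0.261, adjusted p = 0.0745). Dhrs9, a dehydrogenase of retinol and steroids, was at 5.27, 4.43 and 4.42 in controls and 6.28, 6.32 and 5.51 in mutants (1.33 ± 0.282, adjusted p = 0.106). Cyp26a1, which breaks down retinoic acid, was at 7.57, 4.45 and 6.05 in controls and 8.34, 8.29 and 7.08 in mutants (1.88 ± 0.617, adjusted p = 0.477). In Rarres1, Rdh11 and Dhrs9 the groups stood apart, while in Cyp26a1 control replicate 13 lay above mutant replicate 4.

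The clock list had the lowest median of the pathway lists, −0.23 (22 genes, 7 above 0, 0 called), and single control mice moved it. Dbp, a clock output factor that swings strongly over the day, was at 4.88 in control replicate 13, 7.12 and 8.07 in the other controls and 5.23, 5.50 and 4.79 in mutants (−1.51 ± 0.581, adjusted p = 0.571). Arntl, the clock activator BMAL1, was at 7.17 in control replicate 13, 5.74 and 5.25 in the other controls and 7.18, 6.99 and 6.73 in mutants (0.91 ± 0.353, adjusted p = 0.575). Nfil3, a repressor of Dbp targets, was at 7.94, 6.71 and 6.25 in controls and 7.55, 7.82 and 7.80 in mutants (0.76 ± 0.298, adjusted p = 0.577). In these 3 genes control replicate 13 had the level of the mutants, and groups overlapped. The list median was −0.35 without control replicate 13 and −0.02 without control replicate 15. Per1, a clock repressor, did not follow that pattern, at 5.37, 6.14 and 5.44 in controls and 4.50, 5.46 and 3.80 in mutants (−1.07 ± 0.33, adjusted p = 0.413). The sources used here do not state the hour at which livers were taken. Its part in these values was not tested. Mt2, a metallothionein that stress hormones induce, was likewise low in control replicate 13 (7.22, against 10.19 and 11.23), with mutants at 8.83, 6.73 and 8.93.

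Chaperones, proteasome subunits and ribosomal proteins were centred above 0 by amounts that moved with single control arrays. The medians were 0.32 for 28 chaperones (25 above 0), 0.22 for 31 proteasome subunits (28 above 0) and 0.10 for 50 cytosolic ribosomal proteins (40 above 0), each with 0 called. Without control replicate 14 they were 0.08, 0.06 and 0.01, and without control replicate 13 they were 0.54, 0.36 and 0.17. The chaperone mean per array was 8.40, 7.59 and 8.01 in controls (replicates 13, 14 and 15) and 8.14, 8.41 and 8.32 in mutants. Hsp90aa1, a cytosolic chaperone, was at 9.82, 8.44 and 8.77 in controls and 9.37, 9.88 and 9.72 in mutants (0.65 ± 0.295, adjusted p = 0.603).

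Genes of DNA replication and the cell cycle were above 0 in 32 of 36 (median 0.26, 0 called, groups apart for 6 higher and 1 lower, against 5.05% and 5.35% of all clusters), at low signal. Mcm6, part of the replicative helicase, was at 4.29, 3.91 and 4.81 in controls and 4.63, 4.71 and 6.16 in mutants (0.83 ± 0.377, adjusted p = 0.597). Cdkn2c, an inhibitor of cyclin-dependent kinases, was at 5.32, 5.34 and 5.72 in controls and 6.5, 5.87 and 5.92 in mutants (0.64 ± 0.2, adjusted p = 0.42). Mutant replicate 4 had the highest list mean, 5.03, against 4.64 and 4.70 in the other mutants and 4.49, 4.49 and 4.65 in controls. Without it the list median was 0.13.

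Markers of Kupffer cells and other macrophages were the cell type list with the highest median, 0.53. Of 20 markers 18 were above 0, 0 were called, 8 had groups that stood apart with mutants higher (5.05% of all clusters did), and 10 had an unadjusted p under 0.05 (4.85% of all clusters, mutants higher). The list mean per array was 5.48, 5.52 and 5.50 in controls and 5.82, 6.51 and 5.73 in mutants, so all mutants lay above all controls and mutant replicate 3 lay highest. Without that mouse the median was 0.29. Cd5l, a protein that resident macrophages secrete, was at 6.07, 5.98 and 6.22 in controls and 6.84, 8.2 and 6.73 in mutants (1.17 ± 0.283, adjusted p = 0.188). Vsig4, a complement receptor of Kupffer cells, was at 6.39, 5.72 and 6.0 in controls and 6.62, 8.27 and 6.63 in mutants (1.13 ± 0.4, adjusted p = 0.536). Lyz2, lysozyme, was at 6.38, 6.52 and 6.74 in controls and 7.12, 8.88 and 6.76 in mutants (1.04 ± 0.388, adjusted p = 0.56).

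Other non-parenchymal lists stayed near 0, with medians of −0.03 for endothelial, 0.06 for stellate cell and fibroblast and −0.10 for lymphocyte and neutrophil markers, and 0 called in each. Lpl, Pltp, Fabp5 and Bst2 are also expressed by macrophages. In Lpl, Pltp and Bst2 mutant replicate 3 was highest, as in the Kupffer list, but in Fabp5 mutant replicate 4 was highest. Lpl and Pltp are also on the list of LXR targets. Hypothyroid minus euthyroid controls, the difference was 3.16 for Lpl, 1.29 for Pltp, 0.25 and 0.03 for Fabp5 and −0.53 for Bst2. The Kupffer list mean was lower in hypothyroid controls (5.057 to 5.198) than in euthyroid controls (5.48 to 5.52). The part of the Kupffer markers in the mutant differences of these genes was not tested. The interferon and antigen presentation list had a median of 0.17 (30 genes, 22 above 0, 0 called), −0.01 without mutant replicate 3 and 0.26 without mutant replicate 4. Gbp3, a guanylate binding protein that interferon induces, was at 5.31, 4.92 and 5.52 in controls and 5.78, 6.08 and 5.96 in mutants (0.69 ± 0.172, adjusted p = 0.223). Complement genes (26, median −0.04) and acute phase genes (27, median −0.11) had 0 called, with C8a as the largest difference among them.

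**Figure D4:**
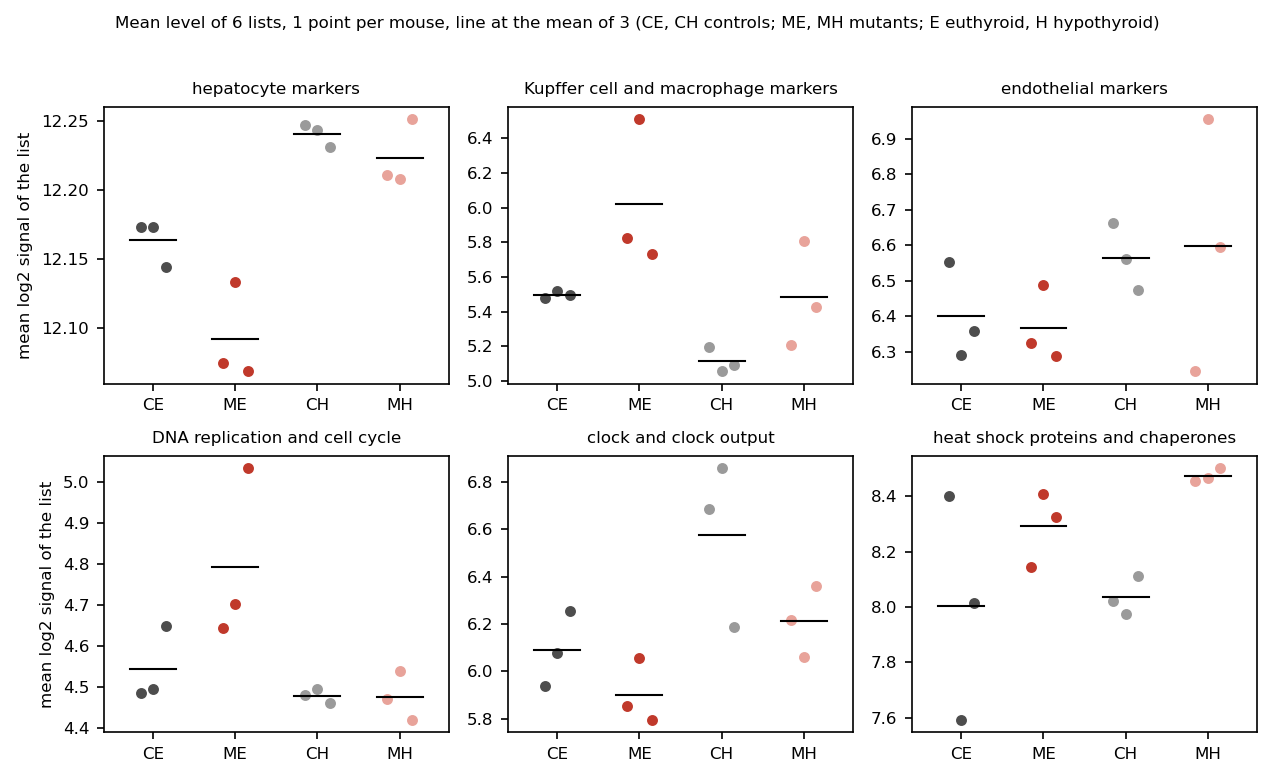
Mean log2 signal of 6 lists (y axis, a scale of its own in each panel), with 1 point per mouse, a line at the mean of 3 and the 4 groups along the x axis. Kupffer cell markers of euthyroid mice lie at 5.48 to 5.52 in controls and 5.73 to 6.51 in mutants, and the low control among chaperones is replicate 14.

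The same mutation in hypothyroid liver gave a comparison on other arrays. There 57 clusters (0.262%) were called, 47 higher (0.216%) and 10 lower (0.0459%). Of the 28 clusters called in euthyroid mice, 27 had the same sign in hypothyroid mice, against 14482 clusters (66.5%) of the table. In 24 of the 28 the groups stood apart in the same direction. Over all clusters, groups stood apart there with mutants higher in 12.4% and lower in 10.2%. Of the 28, 13 clusters (11 genes) were called there too, which is 13 of the 57. Of the 18 clusters outside the lipid lists 6 were called there, and of the 10 on them 7. Across all clusters the differences in both states had a Pearson r of 0.55 and a Spearman rho of 0.48, a description across genes, which are not independent replicates. The comparisons share no array but share the fit's variance estimate.

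Genes outside the lipid lists that were called in both states were Ces2a, Sytl5, Ehhadh, Vtcn1 and Gask1a. Ces2a was at 8.88, 9.19 and 8.86 in hypothyroid controls (replicates 17, 18 and 20) and 10.80, 10.76 and 10.79 in hypothyroid mutants (replicates 5, 6 and 7), a rise of 1.81 ± 0.14 (adjusted p = 2.488e-05). That was the larger of its differences, and the unadjusted p of the change between states was 0.0039. Ehhadh was at 9.95, 10.54 and 10.09 in hypothyroid controls and 11.45, 11.67 and 11.61 in mutants (1.38 ± 0.213, adjusted p = 0.011). Vtcn1 was at 3.84, 3.78 and 3.85 in hypothyroid controls and 4.58, 5.04 and 4.92 in mutants (1.03 ± 0.142, adjusted p = 0.00521). The clusters of Sytl5 rose by 1.34 and 1.10, and Gask1a rose by 1.54.

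Called genes that were not called again in hypothyroid mice differed there by varied amounts. Serpina12 was at 2.90, 2.64 and 3.16 in hypothyroid controls and 2.80, 3.61 and 3.51 in mutants (0.41 ± 0.273, adjusted p = 0.605). Prom1 was at 3.29, 3.91 and 3.56 in controls and 3.90, 3.94 and 3.62 in mutants (0.23 ± 0.252, adjusted p = 0.752). Hs3st3a1 had the opposite sign, at 3.71, 3.86 and 3.39 in controls and 3.36, 3.77 and 3.54 in mutants (−0.10 ± 0.158, adjusted p = 0.839). Sult2a3, at 3.17, 2.60 and 2.84 in controls and 5.23, 6.42 and 4.27 in mutants, kept groups apart without a call (2.43 ± 0.516, adjusted p = 0.0735), and Gm21286 differed by 1.09 (adjusted p = 0.492).

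The difference of the mutant effect between thyroid states was tested for every cluster, and limma called 0, with 600 (2.75%) at an unadjusted p under 0.05 and a lowest adjusted p of 0.287. Of the 28 clusters 13 had an unadjusted p under 0.05 for it, 11 of them with the smaller difference in hypothyroid mice, among them Hs3st3a1 (0.000596), Serpina12 (0.00132) and Prom1 (0.00419). The clusters were picked on their euthyroid difference, so a smaller difference in the other state is a description, and no effect was shown to depend on thyroid state.

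**Figure D5:**
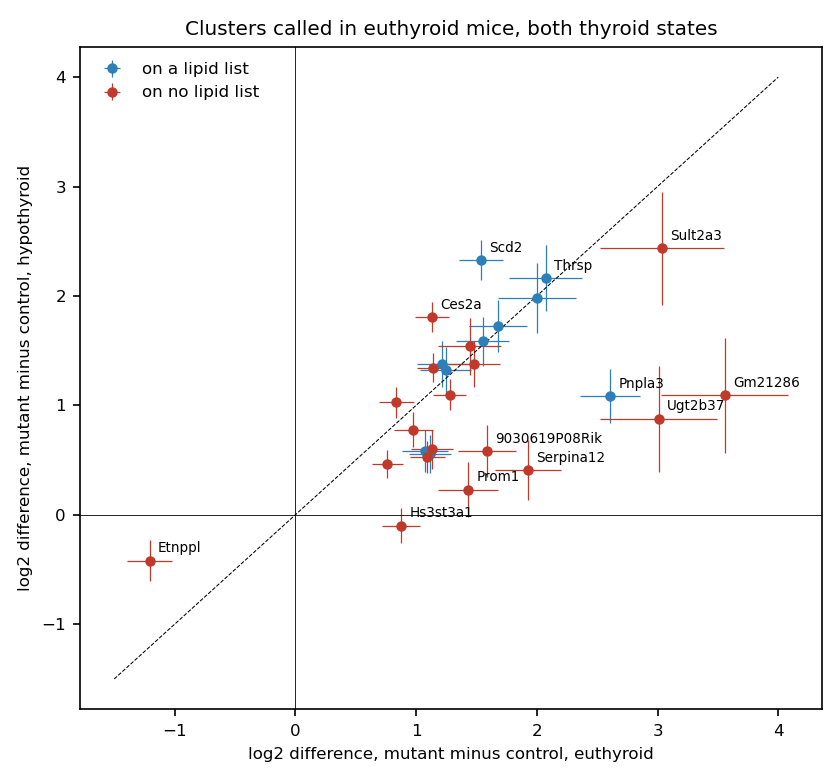
Log2 difference, mutant minus control, of the 28 clusters called in euthyroid mice, in euthyroid (x axis) and hypothyroid mice (y axis), with bars of 1 SE and a dashed line of equality. Of the 28, 27 have the same sign on both axes, and Serpina12, Prom1 and Hs3st3a1 lie far below the line.

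The level of several called genes depended on thyroid state in controls, where hypothyroid and euthyroid mice were compared with the same euthyroid control arrays as above. Of the 28 clusters 11 were called in that comparison, 4 lower and 7 higher in hypothyroid controls. The 28 were picked on a difference from those same euthyroid controls. For clusters picked as higher in mutants, that favours a rise in hypothyroid controls. The share called over all clusters was not counted, so these counts are only a description. Gm21286 was at 1.57, 1.52 and 1.78 in hypothyroid controls and 2.01, 4.14 and 1.99 in hypothyroid mutants, against 6.87 to 9.07 in euthyroid controls. 9030619P08Rik was at 3.01, 3.01 and 3.85 in hypothyroid controls and 3.91, 4.04 and 3.64 in hypothyroid mutants, against 7.53 to 8.33 in euthyroid controls. Ugt2b37 was at 3.78, 2.85 and 2.99 in hypothyroid controls and 3.99, 4.22 and 4.04 in hypothyroid mutants. In hypothyroid mice these 3 transcripts ranged from 1.52 to 4.22, beside medians of 4.16 to 4.26 on the hypothyroid arrays. Whether low signal limited their difference between genotypes was not tested.

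Gstm3 stood the other way, at 11.97, 11.75 and 12.04 in hypothyroid controls, 2.78 above euthyroid controls, and at 12.71, 12.37 and 12.28 in hypothyroid mutants. Etnppl was at 10.34, 10.19 and 9.95 in hypothyroid controls, 1.26 above euthyroid controls, and at 9.68, 9.78 and 9.78 in hypothyroid mutants. Acot11 was at 4.94, 4.90 and 4.82 in hypothyroid controls, and fell by 0.91 against euthyroid controls. Its hypothyroid mutants were at 6.03, 5.56 and 5.40. Dio1 was between 2.83 and 3.72 in all hypothyroid mice.

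How many genes were called depended on single arrays. The count was 192 without control replicate 13, 8 without control replicate 14, 8 without mutant replicate 2 and 6 without mutant replicate 4, and 22 to 32 without any other array. With the array SD covariate, 18 of the 28 clusters called were among those above. The count of shared clusters was 7 without control replicate 14, 8 without mutant replicate 2 and 6 without mutant replicate 4. Beside Pnpla3, Scd2, Ces2a and the pair of Sytl5, the other 23 clusters lost their call under at least 1 alternative, where their highest adjusted p ran from 0.0532 (Gstm3) to 0.244 (Gask1a). All 28 kept their direction throughout.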

How the data were processed

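Total liver RNA of 12 mice was measured on Affymetrix Gene Level 1.0 ST microarrays, after Trizol isolation and RNeasy clean-up, per the labels' protocols. Per the submitters' processing notes, the authors made the deposited values, log2 signals, with RMA. The version and options of RMA, the build of the features and any scan date are not stated in these sources, and array batches were therefore not tested. The number of arrays limits the precision.

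Of 35557 transcript clusters, 21789 (19938 genes) had 1 gene symbol in the platform annotation, 1621 several and 12147 none. No filter on level was set. A RefSeq table of GRCm38.p6 held the Entrez identifiers of 21698 clusters and served for names and promoter windows.

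The main analysis used limma 3.58.1 in R 4.3.3, with means of 4 groups over all 12 arrays (residual degrees of freedom 8, prior 6.83). Benjamini-Hochberg adjustment ran over all tested clusters of a comparison, and clusters under an adjusted p of 0.05 are named as called. SE is that of the model, groups held 3 mice, and all adjusted p-values are limma's. In lists, the cluster with the highest mean stood for a gene. The model was checked on simulated data.

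The members, the 45 lists and the tests were chosen with earlier results of these data known. Genes named are every called cluster, examples of the 10 largest uncalled rises and of the 10 largest falls (groups apart, higher mean above the median level of 4.70), leading members of each list described, thyroid hormone and corepressor genes, and paralogs of called genes. Exceptions are marked. Alternatives were quantile normalization, median centring, other sets of clusters, a trended robust prior, array SD as a covariate, the compared groups alone, and arrays left out.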

Additional observations from a re-analysis of the deposited data

Results flagged for a closer look

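4 transcript clusters that carry no single gene symbol passed the threshold when all 35557 clusters were fitted together, and lie outside the tests of named genes. Their log2 differences, euthyroid mutant minus control, were 1.73 (adjusted p = 0.0249 in limma), 2.28 (adjusted p = 0.0249), 1.24 (adjusted p = 0.0426) and 1.08 (adjusted p = 0.0249). In hypothyroid mice the differences of the same clusters were −0.012, 2.10, 1.04 and 0.927. The cluster at 1.73 stood at 4.11, 4.19 and 4.28 in euthyroid controls and at 6.35, 5.78 and 5.64 in euthyroid mutants. The cluster at 2.28 stood at 3.05, 3.69 and 4.04 in controls and at 6.02, 5.80 and 5.81 in mutants. When clusters without a single symbol were fitted apart from the others and adjusted within each kind, none was called. That was 0 of 1621 with several symbols and 0 of 12147 with none. By identifier, the clusters at 1.24 and 1.08 fall between the clusters of Ces2b and Ces2e. Whether they measure Ces2 genes was not examined, and no gene was named from the 4 clusters.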

How the results depend on the processing

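The 28 euthyroid calls became 45 after quantile normalization (38 higher, 7 lower), 10 with every cluster of the table in the fit, and 14 without control euthyroid replicate 14 and mutant hypothyroid replicate 7 together (10 of them shared). Leaving out 1 array gave 6 to 192 calls. Median centring gave 27, clusters above the median level 20, the trended robust prior 28, the compared groups alone 19, and array SD as a covariate 28 (19 higher, 9 lower). The 57 hypothyroid calls became 33 with every cluster, 9 with array SD as a covariate, 174 with the compared groups alone (56 shared) and 21 to 133 without 1 array. The 0 calls for the difference between thyroid states stayed at 0 in the other settings and were 0 to 1 without 1 array. No paired analysis was possible because the groups compared share no replicate numbers.

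Small differences of 4 uncalled genes changed sign. Gps2 was at −0.031 after quantile normalization, −0.0267 with array SD as a covariate and −0.0155 without both outlying arrays, and Tbl1x at −0.0194, −0.133 and −0.113. Thrb was at −0.109 with the covariate and −0.126 without both arrays, and Hdac3 at −0.0428 and −0.0652. Leaving out 1 array gave −0.0155 to 0.0323 for Gps2, −0.113 to 0.173 for Tbl1x, −0.126 to 0.321 for Thrb and −0.0652 to 0.203 for Hdac3. The cause was not tested. Of the alternatives for single clusters in the text 1598 kept direction and side of the threshold, 177 lost a call and 56 gained one. List medians moved by less than the spread between replicates in 916 cases and by more in 27. Signals near the bottom of the scale, as of Serpina12 in controls, limit how well a fold can be measured.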
